A study of Homo sapiens with 4 samples.

Results

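The genes described here are 10 transcripts used as readouts of oxygen sensing and sugar metabolism: SLC2A1, SLC2A3, HK2, PFKFB4, ENO2, LDHA, NDRG1, ADM, CA9 and VEGFA. They were taken as a list of names, with every probe set annotated to that gene alone; the rule uses no measured value, though the list was drawn up with earlier results of these data known. Of the 10 genes, 9 had such probe sets, 18 in all among the 54675 of the array. CA9 was not listed with a probe set of its own in the annotation used, so its signal is not analysed here. RNA came from the human lung adenocarcinoma cell line CL1-0 and its invasive subline CL1-5, as stably transduced, puromycin-selected populations. There were 4 groups of 1 Affymetrix array each: CL1-5 cells carrying G9a shRNA, CL1-5 cells carrying control shRNA, CL1-0 cells carrying HA-G9a, and CL1-0 cells carrying the control vector. EHMT2 encodes G9a, an enzyme that methylates histone H3 at lysine residues. Each arm was a single population with a single construct and no array was a replicate of another, so differences are given as ratios with no p-value.

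When oxygen is scarce, the alpha subunits of the hypoxia-inducible factors (HIF) escape prolyl hydroxylation and VHL-directed breakdown, pair with ARNT and bind short DNA elements near their target genes. The targets include glucose transporters, glycolytic enzymes, and secreted factors that act on vessels, so that cells take up more glucose and send pyruvate to lactate. Many tumours run the same programme in the presence of oxygen, and the genes also answer to other inputs such as MYC and amino acid stress.

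The core of the HIF binding element reads ACGTG or GCGTG. Promoters of SLC2A3, NDRG1 and VEGFA were not used here. To show what lies at the starts of other genes on which the results turn, the 250 bases before the annotated start are printed for HK2, which has a pair of listed starts, ENO2 and ADM, with the first listed start of LDHA as a gene that hardly varied. The sequences are from RefSeq, build GRCh38.p14, plus strand, written 5′ to 3′. Their positions are chr2:74833877-74834126 for the first HK2 start, chr2:74834920-74835169 for the second HK2 start, chr12:6914330-6914579 for ENO2, chr11:10304823-10305072 for ADM and chr11:18394313-18394562 for LDHA. Capitals mark ACGTG or GCGTG on either strand, so CACGT and CACGC are matches on the minus strand.
HK2 first start: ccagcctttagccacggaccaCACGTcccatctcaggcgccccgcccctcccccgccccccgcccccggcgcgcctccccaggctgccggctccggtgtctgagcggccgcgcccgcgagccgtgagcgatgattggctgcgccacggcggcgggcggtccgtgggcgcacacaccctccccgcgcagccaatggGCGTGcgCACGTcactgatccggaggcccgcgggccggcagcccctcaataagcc
HK2 second start: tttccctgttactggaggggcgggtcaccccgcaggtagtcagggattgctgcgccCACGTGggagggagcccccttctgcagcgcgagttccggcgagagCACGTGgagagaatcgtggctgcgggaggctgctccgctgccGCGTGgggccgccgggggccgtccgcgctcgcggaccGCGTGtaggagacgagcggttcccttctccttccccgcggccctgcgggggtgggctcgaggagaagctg
ENO2: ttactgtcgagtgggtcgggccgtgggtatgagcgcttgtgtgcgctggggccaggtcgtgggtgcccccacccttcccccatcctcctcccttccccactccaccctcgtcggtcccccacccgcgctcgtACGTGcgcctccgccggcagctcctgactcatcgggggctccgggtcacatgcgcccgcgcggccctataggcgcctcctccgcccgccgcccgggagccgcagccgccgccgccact
ADM: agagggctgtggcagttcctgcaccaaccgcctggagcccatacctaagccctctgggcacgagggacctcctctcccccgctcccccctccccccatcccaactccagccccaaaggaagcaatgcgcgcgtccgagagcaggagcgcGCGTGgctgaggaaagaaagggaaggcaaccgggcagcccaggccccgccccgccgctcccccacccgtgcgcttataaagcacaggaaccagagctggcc
LDHA first start: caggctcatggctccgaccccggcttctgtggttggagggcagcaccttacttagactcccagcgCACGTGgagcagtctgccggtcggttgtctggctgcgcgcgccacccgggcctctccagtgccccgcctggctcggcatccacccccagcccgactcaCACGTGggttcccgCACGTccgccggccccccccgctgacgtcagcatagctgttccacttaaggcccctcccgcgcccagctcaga
The palindrome CACGTG, also the E-box bound by MYC, holds ACGTG on both strands and counts as a pair of matches. The second HK2 window held 6 matches, of which 4 came from its 2 CACGTG palindromes. The first HK2 window held 3, the LDHA window 5, and the ENO2 and ADM windows 1 each. Promoters were listed for 7 of the 10 genes, with 9 windows in all, and 8 of the 9 held at least 1 match, against 43.2% of all 35116 windows of this length. The window of CA9, counted here although its signal was not measured, held 1 match and had the lowest share of G and C. The window of SLC2A1 held 0 matches. At least 5 matches, as at LDHA and the second HK2 start, were found in 1.36% of all windows, and CACGTG in 6.34%. These windows are rich in G and C, between 60.4% and 76.8%, and matches are a description of the letters, with no binding measured.

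Array brightness differed between populations. The median deposited signal was 14.9 for CL1-5 G9a shRNA, 11.3 for CL1-5 control, 12.3 for CL1-0 HA-G9a and 11.7 for CL1-0 vector. Ratios are therefore called relative where the median log2 ratio of all genes in that comparison has been subtracted, which was 0.42 for the knockdown, -0.08 for HA-G9a and -0.01 between the control populations. A gene is represented by its probe set with the highest mean signal, is counted when its brighter array reaches 12.5, the median of all values, and is called past a relative 2-fold. As a technical yardstick, the pooled SD of the log2 ratio among probe sets of the same gene was 0.54 for the knockdown, 0.51 for HA-G9a and 0.65 between the lines. Among probe sets whose brighter array reached a stricter filter of 84.2, it was 0.30, 0.25 and 0.41. The bright EHMT2 probe set gave 28.1 on the G9a shRNA array and 376 on its control, and 862 on the HA-G9a array and 420 on the vector array, in the directions the labels state. The labels give a type II alveolar origin. Of 9 type II markers with a probe set, ETV5 was bright on all arrays (104 to 294). The surfactant genes SFTPB, SFTPC and SFTPD were dim, at 22.9 to 40.2, 6.72 to 33.5 and 0.453 to 10.8. Also dim were NKX2-1 (3.87 to 60.2), ABCA3 (16.2 to 47.4), LAMP3 (9.74 to 37.4), NAPSA (4.68 to 18.4) and SLC34A2 (3.35 to 8.51). Of 5 epithelial markers KRT18 (545 to 2945) and KRT8 (67.1 to 757) were bright and EPCAM (6.06 to 24.6) and KRT19 (0.304 to 1.26) dim. CDH1 read 77.6 with the G9a shRNA against 2.36 with the control shRNA, and 14.9 on both CL1-0 arrays. Of the leukocyte markers with a probe set, PTPRC (2.59 to 4.17) and CD14 (0.559 to 2.58) were below the filter on all arrays, while LCP1 (11.7 to 23.4) and CD3E (7.11 to 15.2) were near it.

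**Figure D1:**
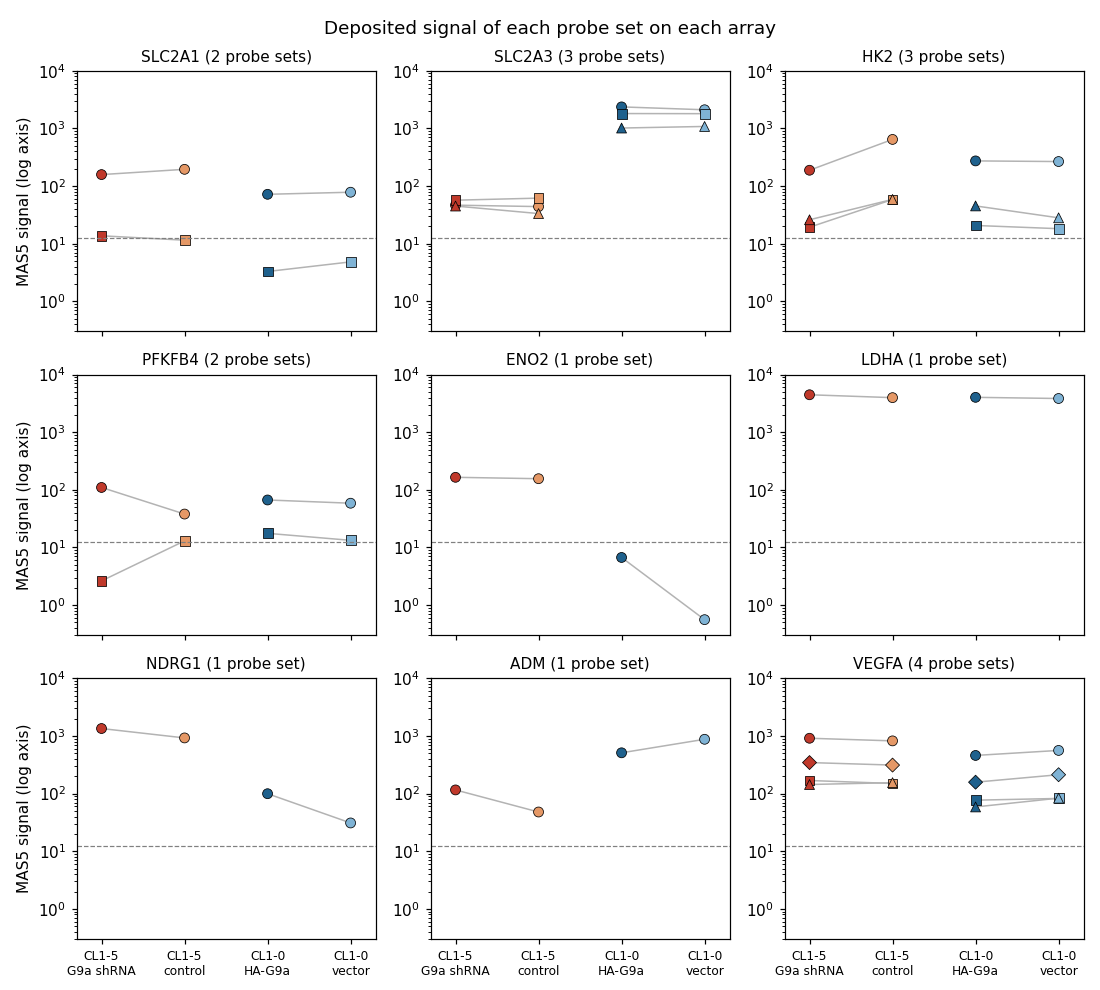
Deposited MAS5 signal (log axis) of every probe set of the 9 measured genes on each array, with the perturbed population left of its control in each line, a marker shape per probe set (circles are the probe set that represents the gene) and a dashed line at the filter of 12.5. SLC2A3 and ADM sit higher in CL1-0, NDRG1 and ENO2 higher in CL1-5, and all 3 HK2 probe sets are lower with the G9a shRNA than with the control shRNA.

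With G9a reduced in CL1-5, HK2, a hexokinase that traps glucose as a phosphate ester inside the cell, lay furthest from its control among the probe sets that represent the genes. Its bright probe set read 188 with the G9a shRNA against 644 with the control shRNA, a relative log2 ratio of -2.20, or 4.58-fold lower. The other HK2 probe sets read 19.3 against 58.4 and 26.0 against 58.6, at relative log2 ratios of -2.02 and -1.59. In bulk RNA, fewer cells with a transcript and less of it per cell cannot be told apart. All 3 HK2 probe sets were past 2-fold in the same direction, and they remained so as deposited, at -1.78, -1.60 and -1.17. The control CL1-5 array was the highest of the 4 on every HK2 probe set. The G9a shRNA array was below both CL1-0 arrays on the bright probe set and the third one.

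The glucose transporter genes stayed within 2-fold. SLC2A1, the basal glucose transporter GLUT1, read 158 with the G9a shRNA against 195 with the control, a relative log2 ratio of -0.73 that fell short of 2-fold and was -0.31 as deposited. Its second probe set was near the filter at 13.7 against 11.5. SLC2A3, the high-affinity transporter GLUT3, read 46.6 against 44.0, 45.0 against 33.3 and 56.8 against 61.7 on its 3 probe sets, relative log2 ratios of -0.34, 0.01 and -0.54. The 3 probe sets of SLC2A3 thus did not share a direction.

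The later steps of the pathway hardly differed after the knockdown. LDHA, which turns pyruvate into lactate, read 4462 against 3976, a relative log2 ratio of -0.25. ENO2, the neuronal or gamma enolase, read 165 against 156, at -0.33. Both were slightly brighter as deposited and slightly lower relative to the median gene, so neither has a settled direction. PFKFB4, a bifunctional enzyme that sets the level of the allosteric activator of phosphofructokinase, gave contradictory readings. Its brighter probe set read 110 with the G9a shRNA against 38.0 with the control, a relative log2 ratio of 1.12, whereas its dimmer one read 2.63, under the floor of 3.35, against 13.0, at -2.37. The call for PFKFB4 rests on which probe set is taken, and the mean of both was -0.64.

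Among the hypoxia-responsive genes outside glycolysis, ADM, which encodes the vasodilator peptide adrenomedullin, read 116 with the G9a shRNA against 48.0 with the control. The log2 ratio of ADM was 1.27 on the deposited values but 0.85 once the median gene was subtracted, so the scaling decides whether it passes 2-fold. NDRG1, a hypoxia- and stress-induced gene described as a metastasis suppressor in several tumours, read 1348 against 926, a relative log2 ratio of 0.12. VEGFA, the angiogenic growth factor, read 914 against 823, 169 against 150, 346 against 313 and 144 against 155 on its 4 probe sets. Their relative log2 ratios lay between -0.53 and -0.24, all within 2-fold.

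Counted by gene, 1 of the 9 (PFKFB4, with the disagreement above) was at least 2-fold higher and 1 (HK2) at least 2-fold lower after the knockdown. Of all 13045 filtered genes, 8.13% were higher and 7.76% lower by the same measure, and 16.8% and 4.74% on the deposited values without centring. The median relative log2 ratio of the 9 was -0.27, against 0 by construction for all genes, and their median absolute ratio was 0.34, against 0.36 for all genes. The 9 genes were thus about as far from the control as the median gene was. Markers of another cell type were also lower on the knockdown array: all 4 measured of the 6 endothelial markers were at least 2-fold lower, PECAM1 at 81.5 against 318, while VWF, at 2.30 against 1.97, and TEK, at 2.54 against 1.86, were under the floor on both. The summed signal of the 6 was 103 against 483. Their part in the HK2 difference was not tested.

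**Figure D2:**
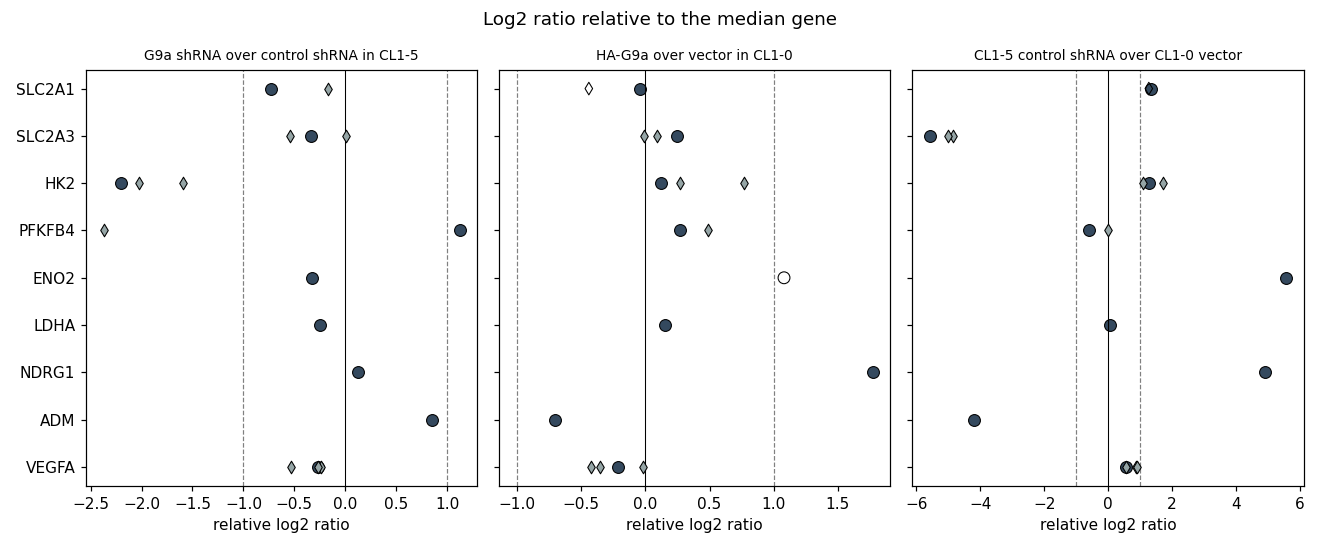
Relative log2 ratio of every probe set in the 3 comparisons (the horizontal scales differ), with circles for the probe set that represents the gene, diamonds for its other probe sets, open symbols where neither array reached the filter, and dashed lines at 2-fold. The 3 HK2 probe sets lie together between -2.20 and -1.59 in the knockdown panel, whereas the 2 of PFKFB4 lie on opposite sides of 0.

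With HA-G9a in CL1-0, NDRG1 was the gene that stood apart. Its single probe set gave 99.7 in HA-G9a cells and 31.0 in vector cells, a relative log2 ratio of 1.77, or 3.40-fold higher. ADM went the other way without reaching 2-fold, at 511 against 877 and a relative log2 ratio of -0.70. ENO2 read 6.71 against 0.559, both under the filter, and has no usable ratio here.

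HK2 did not mirror its knockdown value at the bright probe set. Its bright signal was 273 in HA-G9a cells and 266 in vector cells, a relative log2 ratio of 0.12, and its dimmer probe sets read 20.7 against 18.2 and 45.2 against 28.1, at 0.27 and 0.77. All 3 HK2 probe sets were within 2-fold, and the bright one turned to -0.04 in another of the scalings tried. The highest of them exceeded the pooled probe-set SD of 0.51 and the other two did not.

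The remaining genes lay close to the vector. SLC2A3 read 2361 against 2105 with HA-G9a on its representative probe set, LDHA 4027 against 3843 and SLC2A1 71.9 against 78.1, at relative log2 ratios of 0.25, 0.15 and -0.04. Both PFKFB4 probe sets were on the higher side, at 66.7 against 58.6 and 17.6 against 13.3, with ratios of 0.27 and 0.49. The 4 VEGFA probe sets had ratios between -0.42 and -0.02, with the brightest at 460 against 562. Of the 8 genes that passed the filter, 1 was at least 2-fold higher and 0 lower. Among all 12791 filtered genes the shares were 5.46% and 3.74%, so that 59.3% of the calls were higher, against 44.1% after scaling all arrays to a common median. The summed signal of the 5 epithelial markers was 2328 with HA-G9a against 652 with the vector, nearly all of it KRT18 (2113 against 545) and KRT8 (186 against 67.1), while EPCAM was lower (12.6 against 24.6), CDH1 level (14.9 on both) and KRT19 under the floor. The part of these markers in the NDRG1 difference was not tested. The median relative log2 ratio of the 8 genes was 0.14 and their median absolute ratio 0.23, against 0.25 for all genes.

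Set side by side, ADM had relative log2 ratios of 0.85 with the G9a shRNA and -0.70 with HA-G9a, and HK2 of -2.20 and 0.12. NDRG1, which HA-G9a left 3.40-fold higher, had a ratio of 0.12 after the knockdown. The knockdown and overexpression used different lines and constructs, and the difference between their effects was not tested.

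The widest differences among these genes lay between the lines. Line and construct cannot be told apart here, since both CL1-5 populations carried an shRNA and both CL1-0 populations HA-G9a or a control vector. Comparing the CL1-5 control with the CL1-0 vector population, ENO2 and NDRG1 were far brighter in CL1-5, and SLC2A3 and ADM far dimmer. ENO2 read 156 in CL1-5 control cells against 0.559 in CL1-0 vector cells, and NDRG1 926 against 31.0, a 30.1-fold difference. Because the CL1-0 signal of ENO2 was under the floor, its difference can be given only as at least 46.8-fold.

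The 3 SLC2A3 probe sets read 44.0 in CL1-5 control cells against 2105 in CL1-0 vector cells, 33.3 against 1081 and 61.7 against 1801, relative log2 ratios of -5.57, -5.01 and -4.85. The representative one was 47.3-fold lower in CL1-5. SLC2A3 has a near-identical paralog, SLC2A14, and part of its signal may come from it: the 2 probe sets annotated to both genes showed the same split, at 46.9 against 1072 and 42.3 against 1369. ADM read 48.0 in CL1-5 control cells against 877 in CL1-0 vector cells, 18.1-fold lower.

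The other transporter leaned the opposite way. SLC2A1 read 195 in CL1-5 control cells against 78.1 in CL1-0 vector cells, a relative log2 ratio of 1.34, so that the line with bright SLC2A3 had the dimmer SLC2A1 signal. HK2 was 2.44-fold higher in CL1-5 on its bright probe set, and 3.25-fold and 2.11-fold higher on the others. VEGFA was higher in CL1-5 on all 4 probe sets, by 0.56 to 0.91 on the log2 scale, short of 2-fold. LDHA was level at 0.06 and PFKFB4 at -0.61 and -0.01.

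By gene, 4 of the 9 were at least 2-fold higher in CL1-5 control cells and 2 lower, against 12.6% and 13.2% of 12925 filtered genes. The median absolute relative log2 ratio of the 9 was 1.34, against 0.51 for all genes. Cell type markers differed between the control populations as well. The endothelial markers past the filter, 4 of them, were each more than 2-fold higher in CL1-5 (summed signal of the 6 listed 483 against 44.6). The other listed ones, VWF (1.97 against 10.4) and TEK (1.86 against 6.64), were under the filter and dimmer in CL1-5. Of 4 measured epithelial markers 2 were higher and 2 lower (summed 3711 against 652), and both measured fibroblast markers were lower (summed 36.6 against 121). Their part in the line differences was not tested. The line ratios held up unevenly when the perturbed populations were added. SLC2A3, ENO2, NDRG1 and ADM kept at least 2-fold and the same direction in all 4 pairings of a CL1-5 array with a CL1-0 array, which was so for 10.3% of 13953 genes. Across those pairs SLC2A3 was 47.5-fold to 70.3-fold lower in CL1-5, ADM 6.10-fold to 18.2-fold lower, NDRG1 8.89-fold to 32.8-fold higher. ENO2 was at least 17.8-fold higher in each pair, with no upper end, since its signal in CL1-0 was under the floor with the vector and under the filter with HA-G9a. At any size of difference, both CL1-5 arrays lay on 1 side of both CL1-0 arrays for SLC2A1, SLC2A3, ENO2, NDRG1, ADM and VEGFA, or 6 of 9, against 58.0% of all genes. HK2 is the exception among the genes past 2-fold between the controls: its 4 ratios ran from -1.01 to 1.28, because the G9a shRNA array lay below both CL1-0 arrays.

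**Figure D3:**
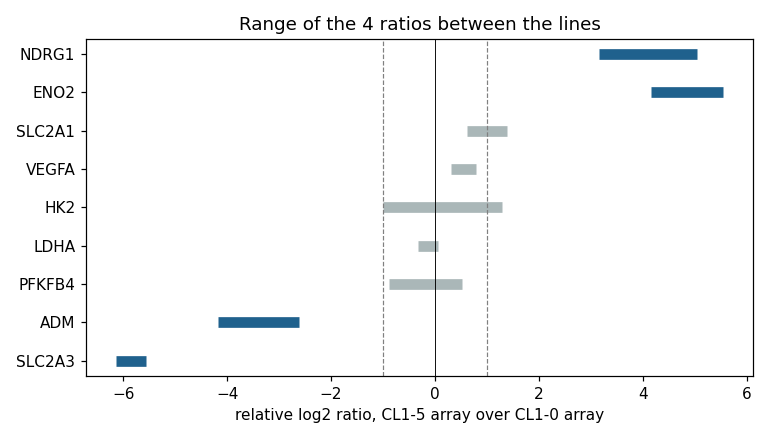
Range of the relative log2 ratio over the 4 pairs of a CL1-5 array and a CL1-0 array for each gene, with dashed lines at 2-fold and dark bars where all 4 pairs pass it. NDRG1 and ENO2 lie wholly to the right, ADM and SLC2A3 wholly to the left, and the HK2 bar spans both sides of 0.

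The glycolytic enzymes beside these genes were nearly level after either change of G9a. All 17 further enzymes were measured and none passed 2-fold after the knockdown (median relative log2 ratio -0.25) or with HA-G9a (median -0.01). Of all filtered genes, 8.13% were higher and 7.76% lower after the knockdown, and 5.46% and 3.74% with HA-G9a. HK1, the housekeeping hexokinase, read 748 with the G9a shRNA against 704 with the control, a ratio of -0.33, within 2-fold where HK2 was 4.58-fold lower. As deposited, 1 of the 17 passed 2-fold after the knockdown. Between the lines 0 were higher in CL1-5 and 3 lower, against 12.6% and 13.2% of all filtered genes. The lower ones were the muscle enolase gene ENO3 (18.4 against 118), the brain aldolase gene ALDOC (79.2 against 210) and the muscle phosphofructokinase gene PFKM (318 against 678). ENO2 and ENO3 thus differed between the lines in opposite directions.

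Of the genes that direct pyruvate to mitochondria or away from them, 7 of 11 were measured. PDK3, a kinase that shuts off pyruvate dehydrogenase, was the only one past 2-fold after the knockdown, at 142 against 37.8 with the control (relative log2 ratio 1.49, its 4 other measured probe sets on the same side), but with averaged probe sets none passed. None passed 2-fold with HA-G9a. The shares of all filtered genes were 8.13% higher and 7.76% lower after the knockdown, and 5.46% and 3.74% with HA-G9a. Between the lines PDK1, a classical HIF target, read 427 in CL1-5 control cells against 89.4 in CL1-0 vector cells, a ratio of 2.27, and PDK3 had a ratio of -1.15, with 2 of its 4 other measured probe sets on the opposite side and the call lost with averaged probe sets.

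The regulators of the pathway differed by alpha subunit. HIF1A, the broadly expressed HIF alpha gene, read 4176 with the G9a shRNA against 4091 with the control and 1881 in HA-G9a cells against 1712 in vector cells, relative log2 ratios of -0.39 and 0.22. EPAS1, which encodes HIF-2 alpha, read 719 with the G9a shRNA against 1354 with the control, and 242 with HA-G9a against 66.5 with the vector. Its ratios were -1.33 and 1.94, with its other measured probe set on the same side in each, so EPAS1 signal moved with EHMT2 in both lines. As deposited, the knockdown ratio of EPAS1 was -0.91, just short of 2-fold. ARNT, the shared partner, read 127 against 92.1 and 123 against 151, within 2-fold in both.

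Of 11 measured regulators after the knockdown, 1 was higher and 2 lower, with a median of -0.13, against 8.13% and 7.76% of all filtered genes. ARNT2, a neural ARNT paralog, read 5.79 against 27.5, and EGLN3, a prolyl hydroxylase that is itself a HIF target, 153 against 57.0. The EGLN3 ratio was 1.01, and 0 regulators were 2-fold higher when the probe sets of a gene were averaged. With HA-G9a, EPAS1 alone passed 2-fold among 10 measured (median 0.04), against 5.46% higher and 3.74% lower of all filtered genes. In other settings 1 regulator was lower with median scaling or quantile normalization and 2 were higher with averaged probe sets. Between the lines, CL1-5 control cells had more signal for EPAS1 (1354 against 66.5 in CL1-0 vector cells), EGLN3 (57.0 against 2.67, the second under the floor) and HIF1A (4091 against 1712), and less for CITED2, a competitor for the HIF coactivator (48.3 against 444), and VHL (33.0 against 86.7).

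**Figure D4:**
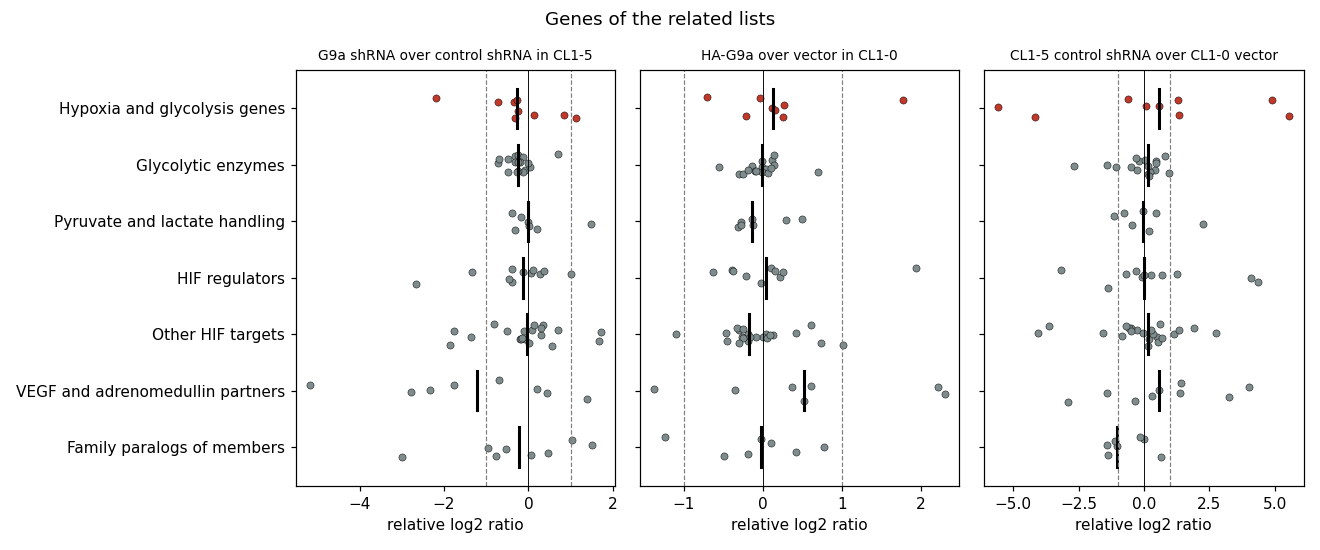
Relative log2 ratio of each gene past the filter (points, spread vertically for legibility) in the genes described here (top row, red) and in the 6 related lists, with the median of each list as a black bar and dashed lines at 2-fold. In the knockdown and HA-G9a panels all 17 glycolytic enzymes lie inside 2-fold.

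Other HIF targets were split. After the knockdown 2 of 20 measured were higher and 3 lower (median -0.02), against 8.13% and 7.76% of all filtered genes. STC2, a secreted glycoprotein, read 322 against 73.4, and VLDLR, a lipoprotein receptor, 9.05 against 24.4. DDIT4, an inhibitor of mTORC1 signalling, read 125 against 314, and EFNA1, an Eph receptor ligand, 17.4 against 4.06. With HA-G9a 1 of 22 was higher and 1 lower (median -0.17), against 5.46% and 3.74% of all filtered genes. ANGPTL4, an inhibitor of lipoprotein lipase, had a ratio of 1.01 that fell just under 2-fold in all 3 other scalings tried, and STC2 read 21.1 against 47.9. STC2 thus ran opposite to EHMT2 in both lines on this probe set, but with averaged probe sets no gene of the list was 2-fold lower with HA-G9a. Between the lines 4 of 22 were higher in CL1-5 and 3 lower (median 0.17), against 12.6% and 13.2% of all filtered genes. They were led by EFNA1 at 4.06 in CL1-5 control cells against 69.1 in CL1-0 vector cells, the collagen crosslinking enzyme gene LOX at 12.3 against 153, and AK4, a mitochondrial adenylate kinase, at 890 against 134.

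Partners of the secreted factors showed the lowest list median after the knockdown, -1.22, with 4 of 8 measured lower and 1 higher, against 7.76% and 8.13% of all filtered genes. The number lower was 2 with the floor at 12.5 or with the stricter filter of 84.2. NRP2, a coreceptor for VEGF family ligands, read 2.29 against 90.5, with its 8 other measured probe sets on the same side. The VEGF receptor genes KDR and FLT1 read 3.27 against 17.2 and 3.28 against 12.7, and the ligand gene VEGFB 34.3 against 87.1. The knockdown signals of NRP2, KDR and FLT1 were under the floor, and KDR is also one of the endothelial markers that were lower there. With HA-G9a, NRP2 and the related coreceptor gene NRP1 were higher, at 26.0 against 5.58 and 94.8 against 21.5, with 1 of the 6 other measured NRP2 probe sets of the other sign, and CALCRL, the adrenomedullin receptor gene, lower at 8.82 against 24.2. Between the lines NRP2 read 90.5 in CL1-5 control cells against 5.58 in CL1-0 vector cells, NRP1 202 against 21.5 and the lymphangiogenic ligand gene VEGFC 13.7 against 103. In all, 4 of 9 measured partners were higher in CL1-5 and 2 lower, against 12.6% and 13.2% of all filtered genes.

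Several paralogs in the families of these genes differed where the genes themselves did not, or the other way. SLC2A6, a lysosomal hexose transporter, read 18.1 with the G9a shRNA against 108 with the control, a relative log2 ratio of -3.00, further from the control than SLC2A1 or SLC2A3. CA13, a cytosolic carbonic anhydrase, read 80.5 against 21.1. NDRG3 gave 329 in HA-G9a cells and 816 in vector cells, a ratio of -1.23, where NDRG1 was higher, but the NDRG3 call was lost with averaged probe sets. After the knockdown 2 of 8 measured paralogs were higher and 1 lower, against 8.13% and 7.76% of all filtered genes. With HA-G9a 0 of 7 were higher and 1 lower, against 5.46% and 3.74%. Between the lines NDRG2, NDRG3 and NDRG4 were at least 2-fold lower in CL1-5 control cells (-1.41, -1.38 and -1.11), opposite to NDRG1, as was SLC2A6 at -1.05. In all, 0 of 7 measured paralogs were higher in CL1-5 and 4 lower, against 12.6% and 13.2% of all filtered genes.

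The genes whose 4 signals ran most like those of HK2 were sought among 8883 genes, by the Euclidean distance over the 4 arrays of median-scaled log2 signals centred on each gene's mean. PSMB9, an immunoproteasome subunit gene, and RAB3B, a vesicle GTPase gene, were nearest at 0.21 each, followed by the syndecan gene SDC1 (0.29), SAMD4A (0.40) and PNP, which encodes purine nucleoside phosphorylase (0.43). The median distance of all genes was 1.68. PSMB9 read 81.7 and 296 in CL1-5 with the G9a and control shRNA, and 144 and 122 in CL1-0 with HA-G9a and the vector. Of the genes described here, SLC2A1 came closest to HK2 with a distance of 1.35, at rank 1260, and SLC2A3 was furthest at 6.13. With 4 arrays, many genes share a pattern, and the distance is a description.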

How the data were processed

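Total RNA of 4 stably transduced populations of established lines was hybridised as biotinylated cRNA, 1 array each, per the labels' protocols. The deposited table gives 1 linear intensity per probe set and array. The values are MAS5 signals, per the submitters' processing notes; the version, settings and any detection calls were not given in the sources used here. Of 54675 probe sets, 41097 had 1 gene symbol, 1801 several and 11777 were not listed, and symbols were updated by Entrez identifier for 41043. After removal of Y-linked genes and an X-inactivation transcript, 19741 genes remained.

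Intensities were set to a floor of 3.35 (25th percentile of all values) and log2-transformed, and ratios were set against the median filtered gene of that comparison. The filter was 12.5 on the brighter array. The number of arrays limits the precision, and with 1 array a group no test across replicates was run. Ratio and count steps were tested on simulated data, with large changes in bright probe sets and less noise than the probe-set SD. That simulation did not test the choice of probe set or changes in dim signals. Python 3.11.15, pandas 2.3.3, NumPy 2.4.6 and matplotlib 3.10.9 were used.

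The members, lists and rules were chosen with earlier results of these data known. Text names all members, EHMT2, HIF1A, EPAS1, ARNT, up to 4 genes past 2-fold per list and comparison, and the 5 genes nearest HK2; markers and paralogs set beside a result (HK1, VWF, TEK) were added after their values were seen. The lists were HIF regulators (13 genes), glycolytic enzymes (17), pyruvate and lactate handling (11), other HIF targets (23), VEGF and adrenomedullin partners (11) and family paralogs (11), beside 5 marker lists. Of the fibroblast, epithelial, type II and leukocyte markers measured after the knockdown, 1 of 2, 2 of 4, 2 of 7 and 0 of 2 were at least 2-fold higher, and 0, 1, 1 and 1 lower. The pairing of all CL1-5 with all CL1-0 arrays, and the promoter search, were added after seeing the data. Alternatives covered scaling, floor, filter, probe-set averaging and the fold threshold.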

Additional observations from a re-analysis of the deposited data

How the results depend on the processing

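Of 204 ratios of single genes recomputed under other scalings, floors, filters and probe-set averaging, 201 moved by less than the pooled probe-set SD of their comparison. The exceptions were ENO2 between the lines, at 8.14 with no floor and 3.65 with the floor at 12.5 (its CL1-0 vector signal was under the floor), and PFKFB4 after the knockdown, at -0.64 as the mean of its disagreeing probe sets. The median ratio of the genes moved by less than that SD in every comparison and setting tried. After the knockdown it ran from -0.34 to 0.15, positive only as deposited. Part of this stability was fixed in advance. Leaving out the centring moves every ratio of a comparison by 0.42, -0.08 or -0.01, always less than that SD. Removing the floor can hardly move genes whose signals lie above it. Against the SD of 0.30 at the stricter filter, the 0.42 shift of the knockdown ratios would count as a move. The count of genes at least 2-fold higher after the knockdown was 1, and became 2 as deposited (ADM was added), 0 with the mean of all probe sets, and 2 at 1.5-fold; the count lower became 2 at 1.5-fold. With HA-G9a the count higher became 2 with no filter (ENO2 was added), and the count lower 1 at 1.5-fold. Between the lines the count higher was 4, and 2 when all 4 pairs of arrays had to pass, an alternative chosen after seeing the data. Of 324 counts over the related lists, 53 moved by over 1.5 times. Small ratios after the knockdown changed sign with the scaling for ENO2, LDHA, SLC2A3 and VEGFA. No paired analysis was possible because each group held 1 array. Signals near 12.5 are noisy in MAS5, which touches the dim probe sets of SLC2A1, PFKFB4 and HK2.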
